A study of Rattus norvegicus with 20 samples.

Results

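The miR-15/16 family and the miR-322 and miR-503 cluster are small RNAs tied to control of the cell cycle, and 8 of them were followed here among 719 rat miRNAs on the array. They were chosen by name: rno-miR-15b-5p, rno-miR-16-5p and rno-miR-195-5p of the miR-15/16 seed group, and rno-miR-322-5p, rno-miR-322-3p, rno-miR-503-5p, rno-miR-351-5p and rno-miR-542-3p of a cluster on the X chromosome. Kidneys came from male Wistar rats weighing 80 to 100 g. Aristolochic acid I (AAI), a plant nephrotoxin that forms DNA adducts, was injected intraperitoneally at 40 mg/kg, and kidneys were taken on day 2, day 4 or day 6; the labels do not give the number of injections. Control rats received only the vehicle, PEG400 in water, and were sampled on day 6. Each of these 4 groups held 5 kidneys, each hybridized to its own single-colour array, so the day 2 and day 4 groups had no vehicle kidneys of their own day. The labels do not say whether every kidney came from a different rat, and p-values then measure only the spread between these samples.

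A miRNA pairs through its seed, bases 2 to 8 from its 5′ end, with sites in messenger RNAs and lowers their translation and stability. Members of the miR-15/16 group are known to repress cyclins D and E, the kinase gene Cdk6, Wee1 and the survival gene Bcl2, and to hold cells in G1. The X-linked cluster, whose miR-322 is the rodent counterpart of human miR-424, is known for a rise during muscle differentiation and for targeting Cdc25a. AAI injures the proximal tubule, and surviving tubule cells can arrest in the cell cycle or divide to repair it.

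The mature sequences show why these miRNAs are treated together and where they part. In the lines below the seed is in capitals, and the sequences are those of RefSeq on the GRCr8 build, which held all 8 members. The first 5 lines, with miR-497-5p, the locus partner of miR-195-5p, added, share 1 seed.
rno-miR-15b-5p: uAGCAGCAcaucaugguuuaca
rno-miR-16-5p: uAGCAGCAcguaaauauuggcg
rno-miR-195-5p: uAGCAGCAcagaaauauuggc
rno-miR-322-5p: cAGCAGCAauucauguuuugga
rno-miR-497-5p: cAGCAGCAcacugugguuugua
rno-miR-503-5p: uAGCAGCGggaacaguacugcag
rno-miR-351-5p: uCCCUGAGgagcccuuugagccuga
rno-miR-322-3p: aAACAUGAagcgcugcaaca
rno-miR-542-3p: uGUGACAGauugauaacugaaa
The seed AGCAGCA is carried by 5 mature rat miRNAs in the RefSeq table, and all 5 were tested here. miR-503-5p has AGCAGCG, so it keeps seed bases 2 to 7 of that group and differs at base 8. miR-351-5p carries CCCUGAG, the seed of miR-125a-5p and miR-125b-5p. The seeds of miR-322-3p, the opposite arm of the miR-322 hairpin, and of miR-542-3p are each found in 1 RefSeq rat miRNA.

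Outside the seed the members diverge. miR-16-5p and miR-195-5p are the closest pair, identical at 19 of 21 positions, and their differences are G10A and U11G (miR-16-5p first, counted from the 5′ end). miR-15b-5p matches miR-322-5p at 16 of 22 positions and miR-16-5p at 14 of 22. miR-322-5p and miR-503-5p match at 11 of 22.

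The hairpins looked up for these miRNAs lie at 3 loci in GRCr8, and further hairpins with the same mature sequence were not searched for. The miR-15b and miR-16 hairpins lie within 244 bases on chromosome 2 (155555178 to 155555421, plus strand), inside the annotated span of Smc4, which encodes a condensin subunit. The hairpins of miR-497 and miR-195 span 411 bases on chromosome 10 (55450171 to 55450581, plus strand) and overlap no other annotated gene. The miR-322, miR-503, miR-351 and miR-542 hairpins span 4066 bases on chromosome X (137722176 to 137726241, minus strand), and the miR-322, miR-503 and miR-351 hairpins overlap the lncRNA gene LOC102550366. miR-450a1, which is not a member, lies beyond miR-542 and extends that span to 5309 bases.

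Signal on an array was summed over the probes of a miRNA and divided by the 75th percentile of that array, and a log2 level of 0 is that percentile, with 1 unit a doubling. Array quality bears on all values. The percentile itself was 367 ± 51.9 (SD, n = 5) intensity units in vehicle and 480 ± 96.3 at AAI day 6, and 250 to 328 miRNAs were detected per array. The arrays lay on 3 slides, each scanned as 1 run: vehicle arrays 1 to 4 were alone on slide 3, slide 2 took vehicle array 5 with every AAI day 2 array and AAI day 4 arrays 1 and 2, and slide 1 took AAI day 4 arrays 3 to 5 with every AAI day 6 array. Vehicle and AAI day 6 shared no slide, so those 2 groups can be compared across slides only. Of the kidney markers, 6 of the 7 on the array were detected on every array, while the 4 miRNAs of skeletal muscle, liver and brain had a summed scaled signal of 0 to 0.148.

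Detection divided the members. 7 of 8 were detected on all 20 arrays and entered the test of 262 miRNAs, a filter that asked for detection on all 5 arrays of at least 1 group. miR-351-5p was detected on 4 of 5 vehicle, 2 of 5 AAI day 2, 3 of 5 AAI day 4 and 4 of 5 AAI day 6 arrays, so it was not tested. No member had a value at the floor.

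**Figure D1:**
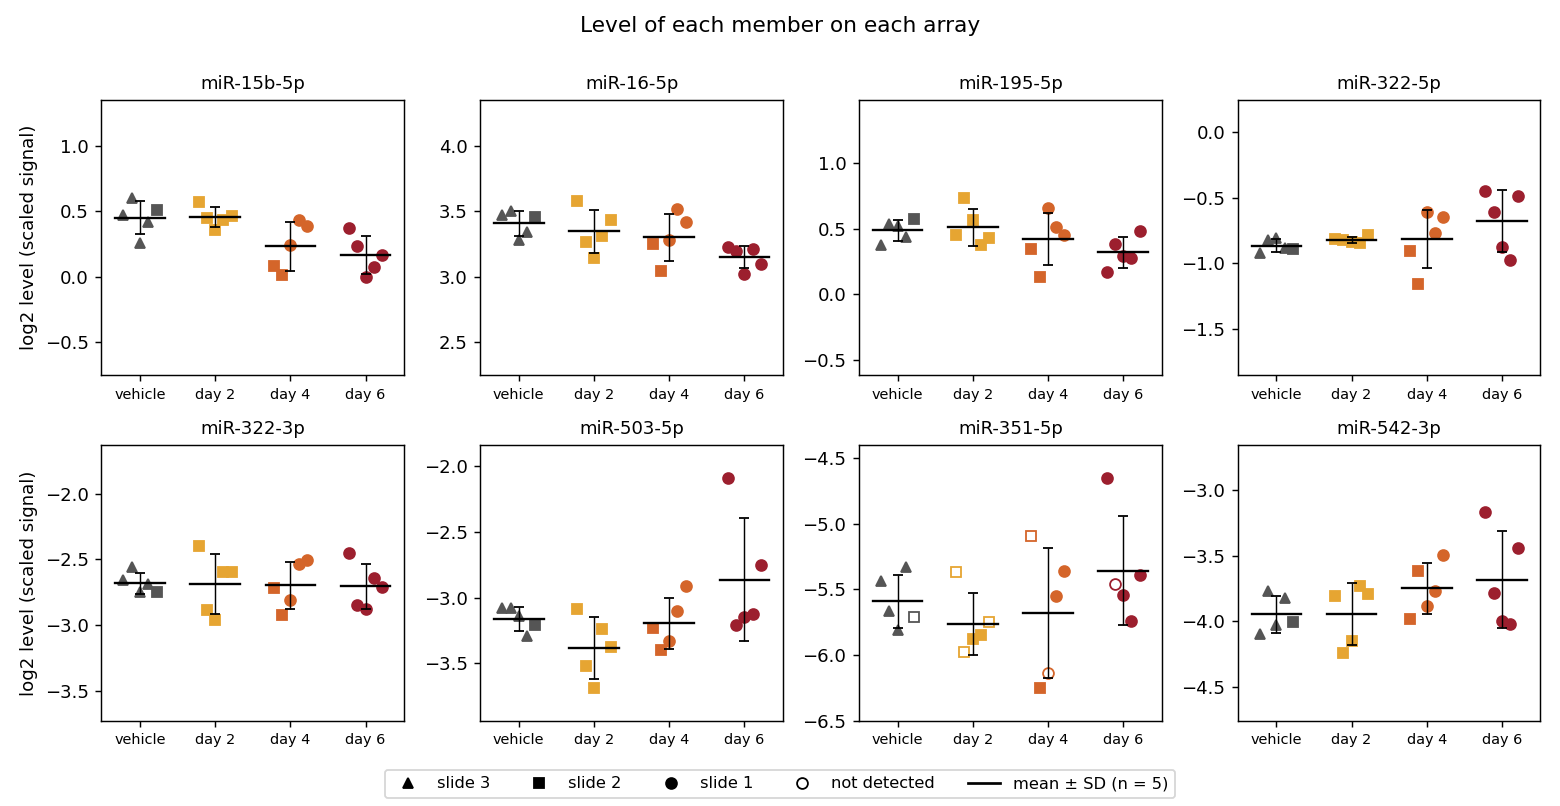
Log2 level of each of the 8 miRNAs (vertical axis, signal relative to the array's 75th percentile) on each of the 20 arrays, by group, with symbols for the slide, open symbols where a miRNA was not detected, and bars for the mean ± SD (n = 5). Vertical axes span the same 2.1 log2 units. With this scaling miR-15b-5p, miR-16-5p, miR-195-5p and miR-322-3p have their lowest group mean at day 6, though the group means of miR-322-3p span only 0.03. miR-322-5p, miR-503-5p, miR-351-5p and miR-542-3p have their highest group mean at day 6, and their highest array is AAI day 6 array 1.

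At AAI day 6 against vehicle, miR-15b-5p and miR-16-5p fell slightly relative to the array percentile, a direction that turned for both without scaling and for miR-16-5p with spike-in scaling, and no member rose. miR-15b-5p was 1.22-fold lower (log2 change -0.28 ± 0.09 SE) and miR-16-5p 1.20-fold lower (-0.26 ± 0.09). These were 2 of 7 tested members, where 26% of all 262 tested miRNAs were called and 18.7% were called lower, so the members were called at about the background rate. The same 2 of 7 had an unadjusted p under 0.05, beside 41.2% of all tested miRNAs. Over all tested miRNAs 49 of 68 calls were lower, against 1 of 34 without scaling, 1 of 22 with spike-in scaling and 11 of 27 when scaled to the median. The median change of the 7 members was -0.03, and the median of all tested miRNAs was -0.11. The calls changed with the scaling of the arrays and with other settings, as given below. In whole kidney, fewer cells of a type and less RNA per cell cannot be told apart.

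miR-15b-5p, from the Smc4 locus, had log2 levels of 0.47, 0.60, 0.25, 0.42 and 0.51 on vehicle arrays 1 to 5. At AAI day 6 the levels were 0.37, 0.23, -0.00030, 0.07 and 0.17. 4 of 5 AAI arrays lay below every vehicle array, and AAI array 1 lay above vehicle array 3, so the groups overlapped. The adjusted p in limma was 0.0299 (95% interval of the log2 change -0.48 to -0.09). The adjusted p of the F test over the 4 groups was 0.0514, and in that test 17.9% of all tested miRNAs and 0 of 7 members were called.

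miR-16-5p, whose hairpin looked up here lies at the same locus, is among the best-studied repressors of cyclin D1. It had levels of 3.47, 3.50, 3.28, 3.34 and 3.46 in vehicle. At AAI day 6 they were 3.22, 3.20, 3.02, 3.21 and 3.10. All 5 AAI arrays lay below all 5 vehicle arrays. Groups failed to overlap for 1 of 7 members, against 23.3% of all tested miRNAs. Its adjusted p in limma was 0.0460 (interval -0.45 to -0.06).

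miR-195-5p, of the same seed group but made on chromosome 10, had levels of 0.37, 0.53, 0.52, 0.43 and 0.57 in vehicle and of 0.17, 0.38, 0.29, 0.28 and 0.48 at AAI day 6. Its change of -0.17 ± 0.09 did not pass (adjusted p in limma 0.192), and the interval ran from -0.36 to 0.03.

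The X-linked miRNAs had positive or near-zero changes at day 6, none of which passed in limma. miR-322-5p, which shares the AGCAGCA seed, had levels of -0.92, -0.82, -0.80, -0.88 and -0.89 in vehicle and of -0.45, -0.61, -0.88, -0.98 and -0.48 at AAI day 6. AAI arrays 1, 2 and 5 lay above all vehicle arrays, whereas AAI arrays 3 and 4 lay within or below them. The change was 0.19 ± 0.11 (adjusted p in limma 0.192). The SD was 0.24 at day 6 against 0.05 in vehicle.

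miR-503-5p, processed a short distance downstream of miR-322, showed the widest spread. Vehicle levels were -3.08, -3.08, -3.14, -3.30 and -3.21, and AAI day 6 levels were -2.08, -3.21, -3.15, -3.13 and -2.76. AAI arrays 1 and 5 lay above vehicle, and the other 3 fell among the vehicle values. The change was 0.30 ± 0.17 (adjusted p in limma 0.205), with an interval of -0.07 to 0.66.

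miR-542-3p, whose known targets include the survivin gene Birc5, had vehicle levels of -4.10, -3.77, -4.03, -3.82 and -4.01 and AAI day 6 levels of -3.17, -3.79, -4.00, -4.02 and -3.44. Again AAI arrays 1 and 5 alone were above vehicle, and the change was 0.26 ± 0.15 (adjusted p in limma 0.205). miR-322-3p did not share that pattern: its change was -0.03 ± 0.11 (adjusted p in limma 0.882), and its day 6 levels of -2.88 to -2.45 covered the vehicle range of -2.75 to -2.56.

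miR-351-5p, with a seed of another family, was dim. Its measured levels were -5.81 to -5.33 in vehicle and -5.74 to -4.65 at AAI day 6, where array 1 was highest, and they stand without a test. Its signal came mostly from its 17-base probe, at 4.13 to 16.6 intensity units, while the median signal of its 14-base probe was -0.74.

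**Figure D2:**
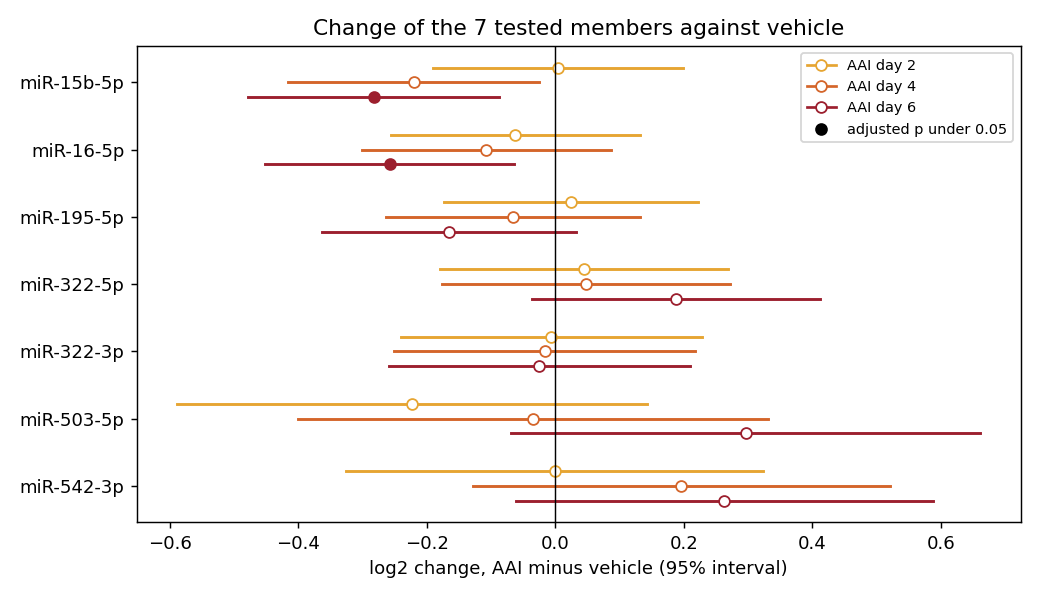
Log2 change (horizontal axis, AAI minus vehicle) of the 7 tested miRNAs at AAI day 2, 4 and 6, with 95% intervals from limma; filled points have an adjusted p under 0.05. The 2 filled points are miR-15b-5p and miR-16-5p at day 6, at -0.28 and -0.26 with percentile scaling, which turned to 0.09 and 0.11 without scaling.

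At the earlier days no member passed. At AAI day 2, 0 of 7 were called beside 1.53% of all tested miRNAs, and 0 of 7 had an unadjusted p under 0.05 in limma, beside 11.1% of all. Changes ran from -0.22 ± 0.17 for miR-503-5p to 0.04 ± 0.11 for miR-322-5p, with adjusted p of 0.692 to 0.996. miR-15b-5p changed by 0.0041 ± 0.09, miR-16-5p by -0.06 ± 0.09, miR-195-5p by 0.02 ± 0.09, miR-322-3p by -0.0060 ± 0.11 and miR-542-3p by -0.00077 ± 0.15. The 95% intervals of the 7 members lay between 0.665-fold and 1.25-fold. miR-322-5p was tight at this time, at -0.84 to -0.78 on the 5 arrays.

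At AAI day 4, 0 of 7 members were called beside 3.44% of all tested miRNAs, and 1 of 7 had an unadjusted p under 0.05 in limma, beside 22.1% of all. That member was miR-15b-5p, at -0.22 ± 0.09 (unadjusted p 0.0288, adjusted p 0.164), with levels of 0.08, 0.01, 0.24, 0.43 and 0.38. The 2 lowest of these were AAI arrays 1 and 2, the 2 on slide 2. miR-16-5p changed by -0.11 ± 0.09, miR-195-5p by -0.07 ± 0.09, miR-322-3p by -0.02 ± 0.11, miR-503-5p by -0.03 ± 0.17, miR-322-5p by 0.05 ± 0.11 and miR-542-3p by 0.20 ± 0.15. Among the 7 tested members the 2 arrays on slide 2 averaged below the 3 on slide 1, by 0.08 for miR-542-3p up to 0.36 for miR-322-5p. How many of all tested miRNAs had that order was not counted, and single arrays did not all follow it. For miR-542-3p, AAI array 2 on slide 2 was at -3.62, above the slide 1 mean of -3.72.

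Between AAI days, 0 of 7 members were called in limma in each comparison. The background was 11.1% for day 6 against day 2, 0.763% for day 6 against day 4 and 0% for day 4 against day 2. At an unadjusted p under 0.05 there were 3, 0 and 1 members in these comparisons, beside 26.3%, 9.16% and 7.63% of all tested miRNAs. For day 6 against day 2 the members' changes ran from -0.29 to 0.52 (adjusted p 0.0534 to 0.942).

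The small day 6 falls depended on the scaling. Before scaling, the mean signal of miR-15b-5p was 499 ± 46.9 (SD, n = 5) intensity units in vehicle and 540 ± 118 at day 6, and that of miR-16-5p was 3882 ± 379 and 4260 ± 864. Without scaling, their log2 changes were 0.09 and 0.11, and the median over all tested miRNAs was 0.26. Scaled to labelling spike-ins, RNAs added in fixed amount, they were -0.02 and 0.0048. Scaled to the median of detected miRNAs they were -0.24 and -0.22, with adjusted p in limma of 0.320 and 0.357. The other members moved by like amounts, so that without scaling miR-322-5p, miR-503-5p and miR-542-3p were at 0.56, 0.67 and 0.63.

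**Figure D3:**
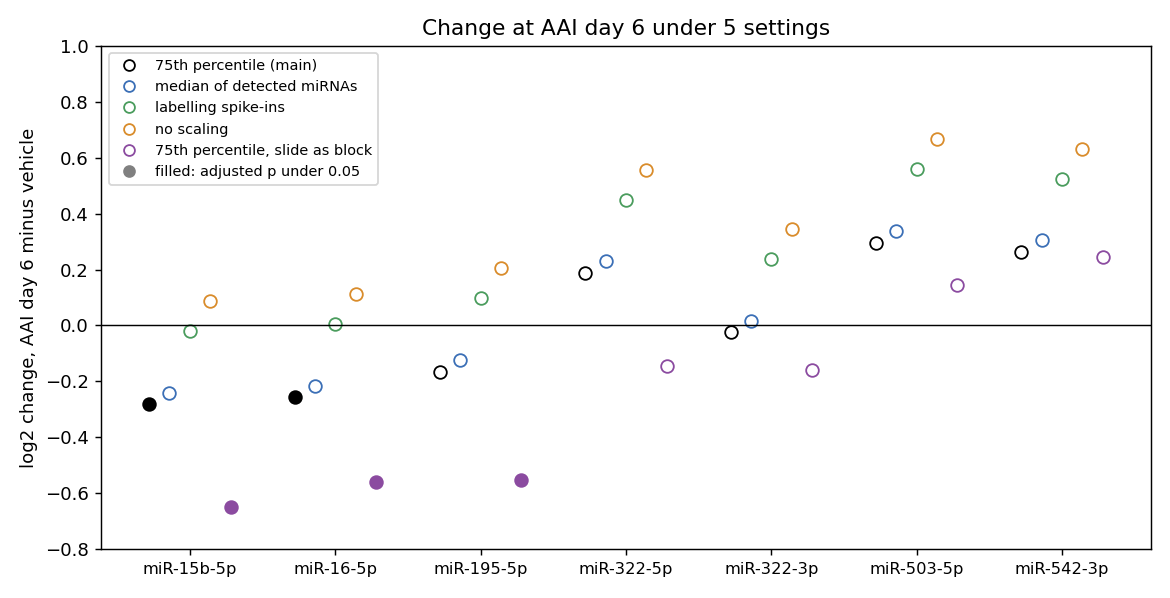
Log2 change at AAI day 6 against vehicle (vertical axis) of the 7 tested miRNAs under 4 scalings and with slide as a block; filled points have an adjusted p under 0.05. miR-15b-5p and miR-16-5p run from -0.65 and -0.56 with slide as a block to 0.09 and 0.11 without scaling, while miR-503-5p and miR-542-3p stay above 0 in all 5 settings.

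Slide also bore on the values. With slide as a fixed block, miR-15b-5p, miR-16-5p and miR-195-5p were at -0.65, -0.56 and -0.55 (adjusted p in limma 0.0195, 0.0331 and 0.0302), and miR-322-5p turned to -0.14. That fit called 34.4% of all 262 tested miRNAs, and the median change over all 262 was -0.32. The estimate with this block runs through vehicle array 5 and the AAI day 4 arrays. Without AAI day 4 array 2 it became -0.62 and -0.46 for miR-15b-5p and miR-16-5p, and neither was called (adjusted p in limma 0.0707 and 0.158). That fit called 0% of all 262 tested miRNAs, so the loss of these calls was not particular to miR-15b-5p and miR-16-5p. With slide as a random block they were at -0.42 and -0.37 (adjusted p in limma 0.0301 and 0.0510), beside 22.9% of all 262 called.

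The calls also varied when single arrays were left out. The changes stayed near those of all arrays, at -0.33 to -0.24 for miR-15b-5p and -0.29 to -0.23 for miR-16-5p. These 10 fits called 22.1% to 32.1% of all tested miRNAs. In limma fits that left out 1 array each, miR-15b-5p did not pass when vehicle array 1, 2 or 5 was left out (adjusted p 0.0627, 0.0799 and 0.0720), nor when AAI day 6 array 3, 4 or 5 was (0.0867, 0.0685 and 0.0507). miR-16-5p did not pass when vehicle array 1, 2, 4 or 5 was left out (adjusted p 0.0965, 0.0990, 0.0579 and 0.0917), nor when AAI day 6 array 3, 4 or 5 was (0.112, 0.0572 and 0.0804). The direction remained lower in each of these 10 fits for both miRNAs.

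Some markers of cell types were called lower at AAI day 6, beside 18.7% of all tested miRNAs called lower. The erythrocyte miRNAs, with miR-451-5p as the defining one, had a summed scaled signal of 0.392 to 1.34 in vehicle and 0.0555 to 0.195 at AAI day 6, and 1 of 1 tested was called lower. The 6 tested leukocyte miRNAs summed to 4.02 to 4.23 and 2.67 to 3.53, with 2 called lower, and the 6 tested kidney miRNAs to 32.3 to 35.0 and 26.5 to 32.6, with 4 called lower. Among 5 stromal and 2 endothelial miRNAs tested, 1 and 0 were called. These calls use the percentile scaling; miR-451-5p was called lower under all 6 scalings, at -2.83 to -2.36, whereas without scaling 1 miRNA of all those tested was called lower. miR-16-5p is abundant in blood cells, and the part of these shifts in its fall was not tested.

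Differences between 2 members on the same array do not change when the whole array is divided by a single factor. Quantile normalization is not such a factor, and the pairs were not run with it. 18 such differences, 6 pairs at 3 days, were tested by exact permutation over every split of the 10 arrays, two-sided, where the smallest possible p is 0.00794. None of the 18 passed after Benjamini-Hochberg adjustment over these tests, and 2 had an unadjusted exact p under 0.05. Without AAI day 6 array 4, 3 passed, all tied at the smallest possible p, of which 1 is a day 4 pair whose own arrays were all kept. For the day 6 pairs among them, this left out the only array not beyond all vehicle arrays, so those passes give no support. The 3 tests of miR-351-5p were not run.

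The pair that parted most was miR-16-5p and miR-322-5p, 2 miRNAs with the same seed from different chromosomes. On vehicle arrays 1 to 5 the log2 signal of miR-16-5p minus that of miR-322-5p was 4.39, 4.32, 4.08, 4.23 and 4.35. At AAI day 6 it was 3.67, 3.80, 3.90, 4.19 and 3.59, and 4 of 5 arrays lay below all vehicle arrays. The shift was -0.45 (exact p 0.0159, adjusted p 0.143). It kept its sign in the 7 other settings tried for pairs, at -0.48 to -0.36, with slide as a block at -0.42 (adjusted p in limma 0.982). Without AAI day 6 array 4, the one array inside the vehicle range, it was -0.53 (adjusted exact permutation p 0.0476). Leaving out the only overlapping array sets the groups apart, so that p gives no support. At day 2 and day 4 the shifts were -0.11 and -0.16 (exact permutation p 0.262 and 0.119).

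The difference between miR-15b-5p and miR-16-5p, with hairpins at 1 locus, shifted by -0.02 at day 6 (exact p 0.675). At day 4 miR-15b-5p lay lower relative to miR-16-5p by a shift of -0.11 (exact p 0.00794, the smallest possible, adjusted p 0.143), and 5 of 5 arrays lay beyond all vehicle arrays. The arms of the miR-322 hairpin differed by a shift of 0.21 at day 6 (exact p 0.111, adjusted p 0.429), and 4 of 5 arrays lay above all vehicle arrays. Without AAI day 6 array 4, the only array not above all vehicle arrays, that shift was 0.30 (adjusted exact permutation p 0.0476). That p was likewise set by the array left out. The shifts of miR-16-5p against miR-195-5p, and of miR-322-5p against miR-503-5p and miR-542-3p, were -0.09, -0.11 and -0.08 at day 6 (exact p 0.349, 0.611 and 0.532).

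**Figure D4:**
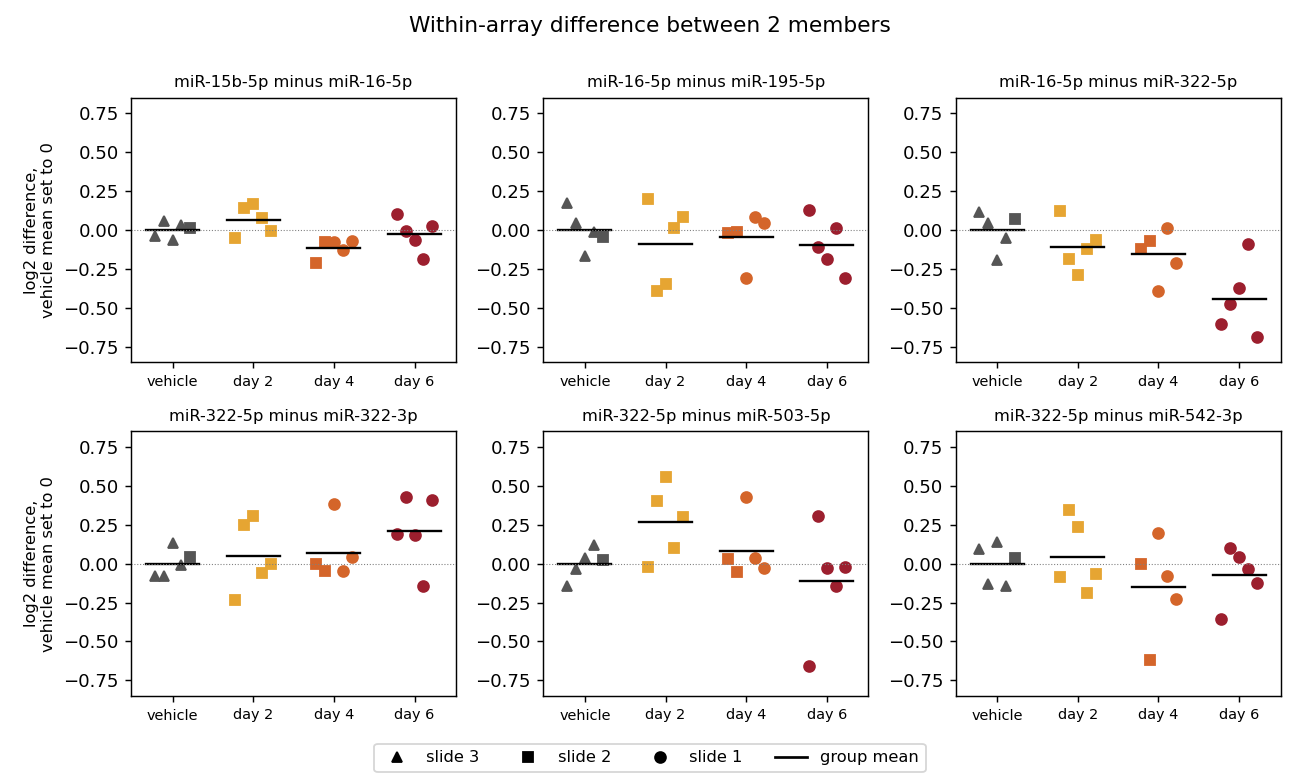
Within-array log2 difference between 2 members (vertical axis, with the vehicle mean of each pair set to 0) on each array, by group, with symbols for the slide and a line for the group mean. For miR-16-5p minus miR-322-5p, 4 of 5 AAI day 6 arrays lie below all vehicle arrays, with a mean shift of -0.45.

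Each tested member was read by 2 probes that pair with the miRNA up to its 3′ end. Those of miR-322-5p and miR-542-3p start at base 2 or 3 and those of miR-503-5p at base 8 or 9. For most members the probes gave the same change. The day 6 changes of the 2 probes differed by 0.0030 for miR-195-5p, 0.0084 for miR-15b-5p, 0.0085 for miR-16-5p, 0.01 for miR-503-5p and 0.02 for miR-322-5p. They differed by 0.07 for miR-542-3p and by 0.17 for miR-322-3p, whose probes, shown here because they differ by a single base, are the shortest among the tested members.
miR-322-3p, 13 bases: tgttgcagcgctt
miR-322-3p, 14 bases: tgttgcagcgcttc
The 13-base probe pairs with bases 8 to 20 and the 14-base probe with bases 7 to 20. The shorter one gave 4.38 to 12.2 intensity units and no array had all its spots well above background, and its day 6 change was 0.13 ± 0.13. The longer one gave 38.3 to 85.6 units and -0.04 ± 0.11. The 18-base probes of miR-16-5p and miR-195-5p, shown because these miRNAs are nearly alike, both cover the 2 bases at which they differ.
miR-16-5p, 18 bases: cgccaatatttacgtgct
miR-195-5p, 18 bases: gccaatatttctgtgctg
Cross-hybridization between the pair was not tested.

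The other miRNAs of these hairpins, clusters and seed were mostly undetected. Of 11 listed, 10 were on the array and 4 were tested. Of the 3 detected on all 20 arrays, 0 were called at day 6 in limma, beside 26% of all tested miRNAs. At an unadjusted p under 0.05 in limma there were 0 of these 3, beside 41.2% of all tested miRNAs. miR-497-5p, with the AGCAGCA seed, was at -0.11 ± 0.12, and miR-542-5p and miR-450a-5p of the X cluster at -0.02 ± 0.13 and 0.06 ± 0.13. miR-351-3p, the opposite arm of the miR-351 hairpin, was detected on 2 of 5 vehicle and 5 of 5 AAI day 6 arrays. It met the filter only through day 6, its highest group, so its change of 1.36 ± 0.58 is given as a description with no test. On its arrays the signal was 2.18 to 21.6 intensity units in vehicle and 11.1 to 35.1 at day 6, so the groups overlapped.

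miR-125a-5p and miR-125b-5p, which carry the seed of miR-351-5p, both fell at day 6 in limma, by 0.34 and 0.19 on the log2 scale (adjusted p 0.00325 and 0.0323). However, miR-125a-5p was called under 3 of 6 scalings and miR-125b-5p under 1 of 6. Without scaling they were at 0.03 and 0.18, and with spike-in scaling miR-125b-5p was at 0.07. Among 21 other miRNAs known to act on the cell cycle, 3 rose and 3 fell at day 6 and 15 did not pass, beside 26% of all tested miRNAs called in either direction, with a median of -0.10 against -0.11 over all tested miRNAs. Those that rose were the p53-induced miR-34a-5p, miR-34b-5p and miR-34c-5p (2.92, 1.10 and 1.28), higher under all 6 scalings compared. Those that fell were let-7b-5p, let-7d-5p and let-7e-5p (-0.30, -0.35 and -0.39), which restrain growth-promoting genes, and without scaling they were at 0.07, 0.02 and -0.02. 0 of the 21 were called in limma at day 2 and at day 4, where 1 and 7 had an unadjusted p under 0.05, beside 11.1% and 22.1% of all tested miRNAs.

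Likeness of pattern to the 224 other miRNAs detected on all arrays, members left out, was measured as the root mean square difference of centred log2 levels over the 20 arrays, a description across arrays that share slides and groups. The non-member most like miR-195-5p was miR-497-5p, its neighbour on chromosome 10 (0.0725). Those most like miR-503-5p and miR-542-3p were in both cases miR-450a-5p (0.213 and 0.189), and that most like miR-322-3p was miR-542-5p (0.0833), all of the X cluster. miR-322-5p was closest to miR-20b-5p (0.0773), miR-16-5p to miR-27b-3p (0.0622) and miR-15b-5p to miR-128-3p (0.0855). miR-503-5p lay closer to its fellow member miR-542-3p (0.207) than to miR-450a-5p. Among the members themselves, miR-15b-5p and miR-16-5p were the closest pair (0.0971), and miR-195-5p and miR-503-5p the farthest (0.400).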

How the data were processed

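Per the labels, a mirVana kit gave the total kidney RNA, and Cy3 was the label. Per the file headers, the scanner software was Agilent Feature Extraction 10.7.1.1, and deposited spot intensity values are background-subtracted. Detection and outlier flags are other deposited values, coded 0 and 1. A deposited series table gives log2 values whose scaling and centring are not stated, so it served as an alternative only.

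Spots with an outlier flag were left out. The mean spot intensity was summed over the probes of a miRNA, divided by the 75th percentile over the 231 miRNAs detected on all 20 arrays, floored at 0.00640 and taken to log2. A fit was made of 262 miRNAs, each with detection on all 5 arrays in 1 group or more, with limma 3.58.1 in R 4.3.3 (16 residual and 2.17 prior degrees of freedom), with two-sided contrasts and Benjamini-Hochberg adjustment over the 262. Calls required an adjusted p under 0.05. The fit was tested on simulated data. The number of arrays limits the precision.

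Members, named lists and tests were chosen with earlier results of these data known. All 8 members were described at each AAI day against vehicle, members between AAI days only where called, and the nearest miRNAs by likeness. Alternatives changed the background correction, scaling, probe summary, flags, filter, floor, slide, replicate number, variance model, source table and arrays. Replicate numbers were not used as pairs: correlations of same-numbered samples ran from -0.621 to 0.659, with 11 of 30 over 0.1. Gene annotation and sequences are from RefSeq GRCr8. Probe coordinates in the files, in rn4, were not used.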

Additional observations from a re-analysis of the deposited data

How the results depend on the processing

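Under the alternatives miR-15b-5p and miR-16-5p stayed lower at day 6 except without scaling and, for miR-16-5p, with spike-in scaling, but the count of called members did not hold. Each count is given with the share of all tested miRNAs called in the same setting. Against the 2 called at day 6 (26%), the count was 0 with normexp (9.16%), quantile normalization (23.7%), no scaling (13.0%), division by the median of detected miRNAs (10.3%) or by spike-ins (8.40%), in the deposited table (21.4%), and with slide as a fixed block without AAI day 4 array 2 (0%). It was 1 with the software's total signal (8.78%; miR-322-5p, higher at 0.40, adjusted p 0.0492), outlier spots kept (24.4%), all miRNAs detected on at least 1 array (19.9%) or slide as a random block (22.9%), and 0 to 2 over the fits that left out 1 array (22.1% to 32.1%). For day 6 against day 2, with 0 called (11.1%), the count was 1 in the deposited table (6.87%), with only miRNAs detected on all 20 arrays (13.9%), with slide as a random block (11.1%), with the replicate block (9.16%) or with a trended and robust variance (12.6%), 3 with slide as a fixed block (36.3%), and 0 to 1 leaving out 1 array (3.05% to 13.0%). For day 4 against day 2 it was 1 with slide as a fixed block (13.0%), and for day 6 against vehicle that block gave 3 (34.4%). The F test, with 0 called (17.9%), called 1 member with only miRNAs detected on all 20 arrays (21.2%), slide as a fixed block (14.1%) or the trended variance (19.5%), and 0 to 1 leaving out 1 array (11.8% to 27.1%). Of the pairs, limma with the replicate block called 1, miR-16-5p minus miR-322-5p at day 6 (adjusted p 0.00396), although the replicate numbers do not pair the samples. Leaving out 1 array at a time called 0 to 3 pairs, and 3 only without AAI day 6 array 4. In these cases the cause was not tested, except that settings which test another set of miRNAs leave the changes themselves as they were.

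The software's total signal is set beside the summed probe signal here, and its part in the changed calls was not tested. It was 0.657 to 0.674 times the summed probe signal for miR-15b-5p, miR-16-5p, miR-195-5p, miR-322-5p and miR-503-5p on every array, but it departed from the usual ratio by over 20% for 39 to 59 of the 231 miRNAs detected on all arrays, for miR-322-3p on 7 arrays and for miR-542-3p on 6. The day 6 difference of the log2 percentile was 0.15 with it and 0.37 with the probe sum.

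The direction of many changes depended on the setting, also for miR-15b-5p and miR-16-5p at day 6. Without scaling it turned for miR-16-5p, miR-322-3p, miR-503-5p and miR-542-3p at day 2 (0.23, 0.29, 0.072 and 0.29), miR-15b-5p, miR-16-5p, miR-195-5p, miR-322-3p and miR-503-5p at day 4 (0.14, 0.25, 0.30, 0.34 and 0.33) and miR-15b-5p, miR-16-5p, miR-195-5p and miR-322-3p at day 6 (0.087, 0.11, 0.20 and 0.34). With spike-in scaling it turned for miR-16-5p, miR-322-3p, miR-503-5p and miR-542-3p at day 2 (0.20, 0.26, 0.039 and 0.26), miR-16-5p, miR-195-5p, miR-322-3p and miR-503-5p at day 4 (0.079, 0.12, 0.17 and 0.15) and miR-16-5p, miR-195-5p and miR-322-3p at day 6 (0.0048, 0.097 and 0.24). Scaled to the median miRNA it turned for miR-322-3p and miR-542-3p at day 2 (0.014 and 0.020) and miR-322-3p at day 6 (0.017). With the percentile over all miRNAs it turned for miR-15b-5p at day 2 (-0.0022). With quantile normalization it turned for miR-16-5p at day 2 (0.043). With normexp it turned for miR-322-5p at day 2 (-0.0029), miR-542-3p and miR-322-5p minus miR-542-3p at day 4 (-0.026 and 0.050) and miR-542-3p, miR-15b-5p minus miR-16-5p, miR-322-5p minus miR-503-5p and miR-322-5p minus miR-542-3p at day 6 (-0.017, 0.015, 0.061 and 0.13). With the mean of log2 probe signals it turned for miR-15b-5p, miR-322-3p and miR-322-5p minus miR-322-3p at day 2 (-0.0025, 0.059 and -0.017), miR-322-3p and miR-322-5p minus miR-322-3p at day 4 (0.055 and -0.0084) and miR-322-3p at day 6 (0.043). With the software's total signal it turned for miR-16-5p and miR-542-3p at day 2 (0.023 and 0.095), miR-195-5p and miR-503-5p at day 4 (0.026 and 0.057) and miR-195-5p at day 6 (0.051). With outlier spots kept it turned for miR-15b-5p, miR-542-3p and miR-322-5p minus miR-542-3p at day 2 (-0.0098, 0.36 and -0.32). In the deposited table it turned for miR-16-5p and miR-322-3p at day 2 (0.049 and 0.027), miR-322-3p at day 4 (0.021) and miR-322-3p, miR-322-5p minus miR-503-5p and miR-322-5p minus miR-542-3p at day 6 (0.038, 0.060 and 0.087). With slide as a fixed block it turned for miR-15b-5p, miR-195-5p, miR-322-3p and miR-542-3p at day 2 (-0.056, -0.063, 0.061 and 0.062), miR-322-5p at day 4 (-0.14) and miR-322-5p at day 6 (-0.14). With the same block and AAI day 4 array 2 left out it turned for miR-15b-5p, miR-195-5p, miR-322-3p and miR-542-3p at day 2 (-0.056, -0.063, 0.061 and 0.062), miR-322-5p and miR-322-3p at day 4 (-0.014 and 0.033) and miR-322-5p at day 6 (-0.018). With slide as a random block it turned for miR-322-3p and miR-542-3p at day 2 (0.047 and 0.035) and miR-322-5p at day 4 (-0.0067). In limma with slide as a fixed block it turned for miR-322-5p minus miR-322-3p, miR-16-5p minus miR-195-5p and miR-322-5p minus miR-503-5p at day 4 (-0.069, 0.027 and -0.033). Within slide 2 the values at day 2 and day 4 equalled those with slide as a fixed block. Leaving out 1 array turned miR-195-5p at day 2 (-0.031 to 0.059), miR-322-3p at day 2 (-0.078 to 0.062), miR-542-3p at day 2 (-0.055 to 0.074), miR-322-3p at day 4 (-0.066 to 0.040), miR-322-3p at day 6 (-0.088 to 0.018), miR-15b-5p at day 2 (-0.045 to 0.041), miR-195-5p at day 4 (-0.13 to 0.0059), miR-503-5p at day 4 (-0.10 to 0.017), miR-322-5p at day 4 (-0.0038 to 0.13), miR-16-5p minus miR-195-5p at day 4 (-0.083 to 0.025), miR-322-5p minus miR-542-3p at day 2 (-0.028 to 0.10), miR-322-5p minus miR-322-3p at day 2 (-0.013 to 0.12), miR-322-5p minus miR-322-3p at day 4 (-0.015 to 0.098), miR-322-5p minus miR-503-5p at day 4 (-0.0037 to 0.12), miR-322-5p minus miR-503-5p at day 6 (-0.21 to 0.029) and miR-15b-5p minus miR-16-5p at day 6 (-0.058 to 0.015). A change below about 0.2 log2 units is within the 95% intervals of the brighter members, and wider ones apply to miR-503-5p and miR-542-3p.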
